A study of Homo sapiens with 4 samples.

Results

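IL4I1 and 6 other genes of tryptophan metabolism were followed in MV4-11 cells, a human AML cell line of monocytic type that carries an MLL fusion and an activated FLT3 receptor. The 7 genes were IL4I1, IDO1, KYNU, KMO, AFMID, AHR and WARS1, out of 16490 genes with values. They were selected on the values of this same comparison, in which IL4I1 stood among the largest increases, together with the genes of the pathway around it. The differences of these 7 genes between the groups are therefore given as a description, with no test. All 7 have at least 1 row in the table, and 5 of them passed the filter on low values, a 4-library mean of 0.5 FPKM or more (FPKM is the number of sequenced fragments corrected for transcript length and library size). IDO1 and KMO lay below it.

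There were 2 libraries of cells with a control hairpin (sh-NC, CEBPG present) and 2 libraries of cells with a hairpin against CEBPG (sh-CEBPG#3, CEBPG knockdown). Both hairpins were delivered by lentivirus with puromycin selection, so every library carries a vector. CEBPG is a leucine-zipper transcription factor of the C/EBP family. It had 30.4 and 33.6 FPKM with sh-NC against 19.2 and 17.1 FPKM with sh-CEBPG#3, which left 56.8% of the control level. With a single hairpin against CEBPG, an effect of CEBPG loss and an effect of that hairpin cannot be told apart. Whether the 2 libraries of each group are separate cultures is not given in the sources used here, so the errors cover the spread between these libraries, which may be technical. No library stood apart, with FPKM totals of 364353 to 389766. The markers of myeloid blasts fixed for the line were present, as 8 of 8 had values between 3.29 and 157 FPKM in every library. Of these, CD33, MPO, CSF1R and SPI1 rose and HOXA9 and MEIS1 fell (limma, adjusted p under 0.05). The summed level of all 8 was 330 to 364 FPKM with sh-NC and 400 to 428 FPKM with sh-CEBPG#3. Of 3 B cell markers, the 2 with a row summed to 0.995 and 1.03 FPKM with sh-NC and 1.03 and 1.52 FPKM with sh-CEBPG#3. The 1 of 3 erythroid markers with a row was at most 0.0769 FPKM, and none of the T cell and epithelial markers had a row.

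Tryptophan is used for protein synthesis or broken down. WARS1 is the cytosolic enzyme that loads tryptophan onto its tRNA. IDO1 opens the tryptophan ring and starts the kynurenine pathway, AFMID releases kynurenine from its formyl form, KMO hydroxylates kynurenine, and KYNU cleaves kynurenine and its hydroxylated product on the way to NAD. IL4I1 is a secreted L-amino acid oxidase of myeloid and B cells that deaminates phenylalanine, tryptophan and tyrosine. AHR is a ligand-activated transcription factor, and products of both IL4I1 and the kynurenine pathway are known among its ligands. IDO1, WARS1 and IL4I1 are known to be induced by interferons in myeloid cells.

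Shown first are start regions of the genes with the largest log2 fold changes among the 7 on log2(FPKM + 1). They are the sequences beside which the levels can be read. By the ratio of the mean FPKM, sh-CEBPG#3 to sh-NC, KMO (1.89) and AHR (1.48) stood above KYNU (1.42). The windows of KMO and AHR are described below but not printed. Each window runs from 250 bases before to 50 bases after a start site on its own strand, on GRCh38 (hg38 in the submitters' notes). Windows of 6 of the 7 genes were matched in the RefSeq promoter set. IL4I1 has starts 32617 bases apart in the annotations. The outer start, at 49929504 on the minus strand of chromosome 19, is also the start of NUP62. The inner start, at 49896887, is that of the MANE Select transcript in GENCODE (ENST00000391826.7), and its window was read from hg38. The WARS1 window shown, from the minus strand of chromosome 14, is that of its MANE Select start at 100375347, which lies 980 bases inside the outer start. Capitals mark matches, on either strand, to 5 motifs. These are the core of the interferon-stimulated response element (ISRE, 2 copies of GAAA separated by NN), the STAT element GAS (TTCNNNGAA), a C/EBP half-palindrome pair (TTGCNNAA), a C/EBP-ATF composite (TGATGNAA) and the AHR core (GCGTG). No matches overlapped in these windows. The files give no start site for their RefSeq rows, so no row could be assigned to a start from them.

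IL4I1, inner start, chr19:49896838-49897137: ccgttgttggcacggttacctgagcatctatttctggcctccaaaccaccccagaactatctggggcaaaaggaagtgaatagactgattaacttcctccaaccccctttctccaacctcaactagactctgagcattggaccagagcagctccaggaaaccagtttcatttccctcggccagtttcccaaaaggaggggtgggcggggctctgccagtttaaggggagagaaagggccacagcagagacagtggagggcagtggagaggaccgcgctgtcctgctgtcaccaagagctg
IL4I1 and NUP62, outer start, chr19:49929455-49929754: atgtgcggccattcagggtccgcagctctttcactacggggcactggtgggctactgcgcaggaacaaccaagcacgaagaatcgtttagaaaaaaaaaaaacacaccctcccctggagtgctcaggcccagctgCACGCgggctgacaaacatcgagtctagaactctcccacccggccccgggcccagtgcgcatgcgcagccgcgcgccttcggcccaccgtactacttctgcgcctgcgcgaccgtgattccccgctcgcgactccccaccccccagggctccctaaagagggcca
WARS1, inner start, chr14:100375298-100375597: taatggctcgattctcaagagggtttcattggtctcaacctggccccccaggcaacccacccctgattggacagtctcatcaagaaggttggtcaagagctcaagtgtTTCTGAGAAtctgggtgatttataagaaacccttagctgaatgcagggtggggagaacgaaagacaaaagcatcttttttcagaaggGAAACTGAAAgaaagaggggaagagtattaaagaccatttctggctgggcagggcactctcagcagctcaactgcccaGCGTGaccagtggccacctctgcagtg
KYNU, chr2:142877414-142877713: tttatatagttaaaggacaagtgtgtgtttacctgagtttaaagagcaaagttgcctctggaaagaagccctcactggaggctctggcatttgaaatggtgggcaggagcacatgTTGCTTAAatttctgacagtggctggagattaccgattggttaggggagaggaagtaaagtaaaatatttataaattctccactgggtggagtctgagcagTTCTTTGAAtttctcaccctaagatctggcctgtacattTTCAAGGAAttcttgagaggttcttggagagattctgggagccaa

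The window of the inner IL4I1 start held none of the 5 motifs. It had 6 CpG dinucleotides and a GC content of 55.0%, against 25 CpG and 63.0% at the outer start, where the only match was 1 AHR core. The inner WARS1 window held 1 ISRE core from base -55, 1 GAS from base -142 and 1 AHR core from base 24, counted from the start site. The outer WARS1 window, with 43 CpG, held 1 AHR core. The KYNU window held 2 GAS matches, from bases -34 and 6, and 1 C/EBP match from base -135. The windows of AHR and AFMID held 1 AHR core each and that of KMO held none of the motifs. Over 34943 distinct RefSeq windows of this length, the ISRE core was found in 3.57%, GAS in 7.66%, the C/EBP motif in 10.5%, the composite in 3.62% and the AHR core in 36.5%. A match is a description of letters and not evidence of binding. Only exact matches were counted, so a window without a match may still hold a variant of a motif.

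IL4I1 went from the lower end to the upper part of the tested genes by expression. With sh-NC it had 0.735 and 0.965 FPKM, and with sh-CEBPG#3 it had 38.0 and 35.3 FPKM. Both sh-CEBPG#3 libraries lay far above both sh-NC libraries. In RNA from a whole culture, more cells with IL4I1 RNA and more of this RNA per cell cannot be told apart. The means were 0.850 ± 0.163 FPKM and 36.7 ± 1.90 FPKM (SD, n = 2 each), which is 43.1 times the control mean. On the log2(FPKM + 1) scale, which understates the change of low values, the log2 fold change was 4.35 (standard error 0.10), the fourth largest increase of the 12142 genes tested (rank 4). With a pseudocount of 0.1 FPKM in place of 1 it was 5.28. In sh-NC cells 6.53% of the tested genes had a lower mean FPKM than IL4I1, and in sh-CEBPG#3 cells 87.7% did. An unadjusted p under 0.05 with a log2 fold change above 1 was passed by 2.36% of the tested genes in the upward direction, and among the 7 genes only IL4I1 had a log2 fold change above 1 in the setting reported.

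Nearly all of the IL4I1 signal with sh-CEBPG#3 was in 1 of its 3 RefSeq rows. NM_152899 had 0.276 and 0.912 FPKM with sh-NC and 38.0 and 35.3 FPKM with sh-CEBPG#3, where it made up 99.97% and 99.9% of the gene. NM_001258018 had 0.449 and 0 FPKM with sh-NC and 0.0116 and 0 FPKM with sh-CEBPG#3. NM_001258017 did not exceed 0.0533 FPKM in any library. The split between the rows was not stable at the low level of the controls, where NM_152899 made up 37.5% of the gene in replicate 1 and 94.5% in replicate 2. With NM_152899 alone standing for the gene, an alternative added later, the log2 fold change was 4.59.

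IL4I1 overlaps NUP62 and ATF5 in the RefSeq annotation, so reads from shared exons could be split between these genes, and the sources used here do not state that counting used strand. NUP62, a subunit of the nuclear pore, had 33.3 and 36.5 FPKM with sh-NC and 35.1 and 34.5 FPKM with sh-CEBPG#3. Its groups overlapped, at a log2 fold change of -0.003 with a standard error of 0.08 (adjusted p = 0.977, limma, Benjamini-Hochberg method). Of its 5 rows, NM_153719 had 14.3 and 15.6 FPKM with sh-NC and 10.02 and 6.71 FPKM with sh-CEBPG#3. NM_001193357 had 0.963 and 0 FPKM with sh-NC and 2.78 and 2.07 FPKM with sh-CEBPG#3. The groups overlapped for the other rows, among them NM_016553 with 9.73 and 13.5 FPKM against 13.4 and 17.5 FPKM. ATF5, a bZIP factor, had a log2 fold change of -0.14 (standard error 0.08, adjusted p = 0.202 in limma). Of the 10 nearest RefSeq genes, 6 were tested, 2 of these rose and 4 did not pass an adjusted p under 0.05. Among all genes tested, 18.5% rose and 23.8% fell at this threshold, so nothing is read from this count. TBC1D17, a GTPase-activating protein for RAB proteins whose annotated end lies 903 bases from that of IL4I1, rose from 4.19 and 4.69 FPKM to 9.90 and 9.34 FPKM (log2 fold change 0.97, standard error 0.09, adjusted p = 3.58e-05 in limma). AKT1S1, a regulator of mTORC1 whose annotation overlaps TBC1D17 at the edge away from IL4I1, had 8.41 and 8.58 FPKM with sh-NC and 8.31 and 7.70 FPKM with sh-CEBPG#3 (adjusted p = 0.507 in limma). MIR4750 lies within TBC1D17, and its row had 1.17 and 2.90 FPKM with sh-NC and 2.80 and 2.51 FPKM with sh-CEBPG#3 (adjusted p = 0.256 in limma). Without sh-NC replicate 2 its log2 fold change was 0.75 with an adjusted p = 4.74e-05 in limma, and without sh-NC replicate 1 it was -0.10 with an adjusted p = 0.669. Whether reads beyond the end of IL4I1 contribute to TBC1D17 was not tested.

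IDO1, the enzyme that starts the kynurenine pathway, stayed at the bottom of the scale. It spans 39913891 to 39928790 on chromosome 8. It is listed at 0 in both sh-NC libraries, and with sh-CEBPG#3 it had 0.150 and 0.0651 FPKM. No fold is given against values of 0, and without read counts it cannot be said how many reads stand behind the values above 0. TDO2, the liver enzyme of the same reaction, had 0.0971 and 0 FPKM with sh-NC and 0.475 and 0.171 FPKM with sh-CEBPG#3, also below the filter. IDO2 had no row.

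KMO, on chromosome 1 from 241532378 to 241595642, had 0.339 and 0.152 FPKM with sh-NC and 0.561 and 0.367 FPKM with sh-CEBPG#3. The lower sh-CEBPG#3 library thus stood 0.367 against 0.339 FPKM for the higher sh-NC library, so the groups did not overlap but came close to touching. Fitted without the filter, its log2 fold change was 0.23 (standard error 0.11).

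KYNU, on chromosome 2 from 142877664 to 143055833, was the most expressed enzyme of the kynurenine branch in the sh-CEBPG#3 libraries among the 4 followed here. It had 10.2 and 9.98 FPKM with sh-NC and 13.8 and 14.9 FPKM with sh-CEBPG#3, and the groups did not overlap. The log2 fold change was 0.47 (standard error 0.08), and the sh-CEBPG#3 mean was 142% of the control mean. Its main row, NM_003937, carried 98.4% and 69.8% of the gene with sh-NC and 83.3% and 83.0% with sh-CEBPG#3. NM_001199241 accounted for most of the difference between the controls, with 0.0267 FPKM in replicate 1 and 2.91 FPKM in replicate 2, while the summed level of the gene hardly differed between them.

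AFMID, on chromosome 17 from 78187362 to 78207702, was the one gene of the 7 with lower values upon CEBPG knockdown. It had 11.9 and 12.5 FPKM with sh-NC and 10.5 and 9.78 FPKM with sh-CEBPG#3. The groups did not overlap, and the sh-CEBPG#3 mean was 83.0% of the control mean (log2 fold change -0.25, standard error 0.08). The rows of AFMID exchanged places within the control group. NM_001010982 had 8.09 FPKM in sh-NC replicate 1 and is listed at 0 in replicate 2, while NM_001145526 had 1.94 and 11.3 FPKM in the same libraries. In both sh-CEBPG#3 libraries NM_001010982 was the main row, with 7.10 and 7.61 FPKM. With that row alone standing for the gene, an alternative added later, the direction turned to a log2 fold change of 1.47 with a standard error of 1.01, so the direction of AFMID holds for the sum of its rows and not for its rows one by one.

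AHR, on chromosome 7 from 17298652 to 17346147, was lowly expressed, with 1.61 and 1.43 FPKM in sh-NC libraries and 2.33 and 2.17 FPKM in sh-CEBPG#3 libraries. Both sh-CEBPG#3 libraries were higher than both controls, and their mean was 148% of the control mean (log2 fold change 0.37, standard error 0.12). With a pseudocount of 0.1 FPKM the log2 fold change was 0.54. It has 1 row in the table.

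WARS1, on chromosome 14 from 100333790 to 100376327, was the most expressed of the 7 genes in every library. It had 77.4 and 81.9 FPKM with sh-NC and 127 and 119 FPKM with sh-CEBPG#3, with no overlap between the groups. The log2 fold change was 0.62 (standard error 0.07), and the increase of 43.2 FPKM in the mean was the largest of the 7 on the FPKM scale. Unlike IL4I1, WARS1 was spread over its rows in like proportions in all libraries. NM_004184 made up 46.9% and 51.6% of the gene with sh-NC and 51.0% and 47.7% with sh-CEBPG#3, and NM_173701 made up 37.3% to 39.5%. NM_213646 had 6.57 and 4.17 FPKM with sh-NC and 9.63 and 12.4 FPKM with sh-CEBPG#3, and NM_213645 ranged from 2.46 to 5.70 FPKM with overlapping groups. WARS2, the mitochondrial enzyme of the same kind, had 3.64 and 4.11 FPKM with sh-NC and 4.90 and 4.72 FPKM with sh-CEBPG#3, with a log2 fold change of 0.25 that did not pass the test (adjusted p = 0.0647 in limma).

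**Figure D1:**
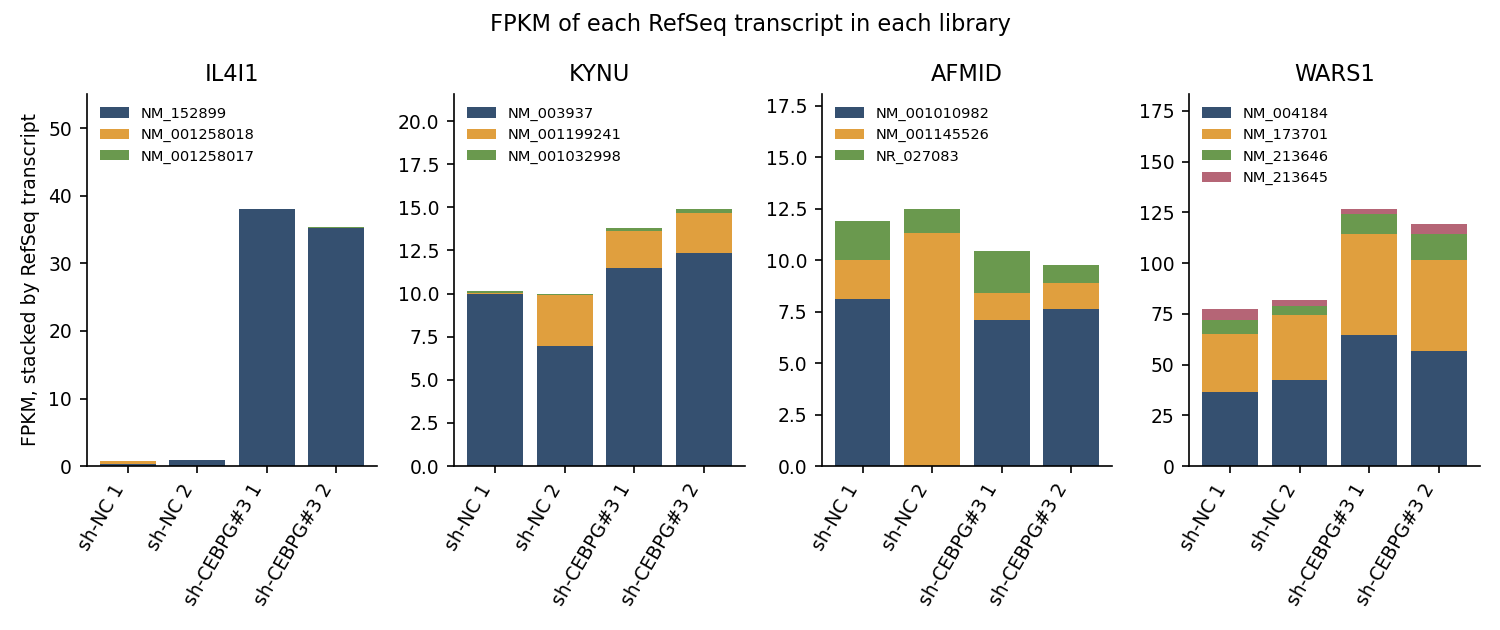
FPKM of each RefSeq row of IL4I1, KYNU, AFMID and WARS1, stacked within each of the 4 libraries, with a separate linear axis from 0 for each gene. NM_152899 fills the IL4I1 bars of both sh-CEBPG#3 libraries, while the AFMID bars are of like height with the main row changing from NM_001010982 to NM_001145526 in sh-NC replicate 2.

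The order of the 7 levels on the FPKM scale was WARS1, AFMID, KYNU, AHR, IL4I1, KMO and IDO1 in sh-NC cells. In sh-CEBPG#3 cells it was WARS1, IL4I1, KYNU, AFMID, AHR, KMO and IDO1. Within each group, no pair of neighbours in these orders overlapped between libraries. KYNU and AFMID exchanged places, at 10.1 ± 0.117 and 12.2 ± 0.394 FPKM with sh-NC and at 14.3 ± 0.782 and 10.1 ± 0.483 FPKM with sh-CEBPG#3 (SD, n = 2 each). Over all 7 genes, 6 were higher with no overlap between the groups and 1 was lower with no overlap. For the 5 genes past the filter, which all tested genes also passed, 4 were higher and 1 was lower in this way. Among all tested genes 31.5% were higher and 40.2% were lower in this way. The 5 genes past the filter had a median log2 fold change of 0.47, beside -0.04 for all genes tested. As the 7 genes were chosen in view of this comparison, nothing is read from these counts.

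The profile of IL4I1 over the 4 libraries was set beside those of the other 12141 tested genes by the Euclidean distance between mean-centred log2(FPKM + 1) values. The nearest were OAS1 (distance 0.109), OAS2 (0.124), IFIT1 (0.255), IFIT3 (0.267) and ISG15 (0.268), which are known as interferon-stimulated genes. OAS1 had 0.672 and 0.874 FPKM with sh-NC and 33.2 and 32.3 FPKM with sh-CEBPG#3, close to IL4I1 in every library. IFIT1 had 0.171 and 0.309 FPKM with sh-NC and 20.9 and 19.5 FPKM with sh-CEBPG#3. It thus passed the filter of 0.5 FPKM only through its sh-CEBPG#3 libraries. The distances rest on the comparison in which IL4I1 was selected, so they are a description. With 4 libraries in 2 groups, a small distance means above all a log2 fold change of like size, which was 4.25 for OAS1 and 4.10 for ISG15.

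The remaining genes of the pathway were taken from lists by role and tested with limma over all 12142 genes, of which 18.5% rose and 23.8% fell at an adjusted p under 0.05. Among the other enzymes of the kynurenine pathway 5 were tested, of which 1 fell and 4 did not pass. QPRT, which turns quinolinate into the NAD precursor nicotinate mononucleotide, fell from 35.0 and 39.6 FPKM to 24.4 and 24.4 FPKM (log2 fold change -0.59, standard error 0.08, adjusted p = 0.000341 in limma). Both sh-CEBPG#3 libraries were below both controls. HAAO, the enzyme that makes the precursor of quinolinate, had 2.33 and 2.97 FPKM against 2.71 and 1.88 FPKM, and its groups overlapped (adjusted p = 0.427 in limma). Of the transaminases, KYAT1 differed by 0.32 (adjusted p = 0.1004 in limma), KYAT3 by -0.13 (adjusted p = 0.272) and GOT2 by 0.11 (adjusted p = 0.418) on the log2 scale. Without sh-CEBPG#3 replicate 2 the value of KYAT1 was 0.51 with an adjusted p = 0.0171 in limma, and without sh-CEBPG#3 replicate 1 it was 0.13 with an adjusted p = 0.538. The list median was -0.13. Of the enzymes that turn tryptophan into serotonin and related amines, TPH1 alone had a row, at 0.0621 to 0.438 FPKM, below the filter.

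Among genes of NAD synthesis downstream of QPRT and of NAD salvage, 4 were tested, of which 2 rose, 1 fell and 1 did not pass (list median 0.41). NMNAT1, the nuclear enzyme that makes the dinucleotide, rose from 1.77 and 2.20 FPKM to 4.09 and 3.67 FPKM (log2 fold change 0.71, standard error 0.12, adjusted p = 0.000939 in limma). NAMPT, which salvages nicotinamide, rose from 4.71 and 4.71 FPKM to 7.06 and 6.63 FPKM (log2 fold change 0.46, adjusted p = 0.003 in limma). NADSYN1, which amidates the dinucleotide of the de novo route, fell from 22.9 ± 2.15 to 17.4 ± 0.216 FPKM (SD, n = 2 each; log2 fold change -0.37, adjusted p = 0.00652 in limma). NAPRT, which starts the salvage of nicotinic acid, had overlapping groups and differed by 0.36 on the log2 scale (adjusted p = 0.0919 in limma). The value of NAPRT depended on single libraries. Leaving out sh-NC replicate 2 or sh-CEBPG#3 replicate 2 gave 0.49 (adjusted p = 0.000893 in limma) and 0.63 (adjusted p = 0.00335), while leaving out sh-NC replicate 1 or sh-CEBPG#3 replicate 1 gave 0.24 (adjusted p = 0.130) and 0.09 (adjusted p = 0.625).

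Of the transporters of tryptophan and other large or neutral amino acids 7 were tested, of which 3 fell and 4 did not pass (list median -0.22). SLC7A5 and SLC3A2, which together form the main importer of tryptophan, had 100 and 111 FPKM and 118 and 128 FPKM with sh-NC. With sh-CEBPG#3 they had 116 and 110 FPKM and 133 and 126 FPKM. Their groups overlapped, and the log2 fold changes were 0.10 (adjusted p = 0.338 in limma) and 0.07 (adjusted p = 0.453). SLC1A5, a carrier of glutamine and other neutral amino acids, fell from 79.7 and 86.3 FPKM to 46.0 and 43.3 FPKM (log2 fold change -0.88, standard error 0.08, adjusted p = 1.52e-05 in limma). SLC43A1, a facilitative carrier of large neutral amino acids, fell from 24.0 and 25.8 FPKM to 15.0 and 13.3 FPKM (log2 fold change -0.78, adjusted p = 9.16e-05 in limma). SLC7A6 also fell (log2 fold change -0.22, adjusted p = 0.0446 in limma), but leaving out any one of the 4 libraries gave adjusted p-values of 0.0732 to 0.170 for it.

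Of the genes that AHR is known to induce 5 were tested, of which 2 rose and 3 did not pass (list median 0.20). NQO1, a quinone reductase that is also induced by NRF2, rose from 9.80 and 11.5 FPKM to 29.2 and 30.6 FPKM (log2 fold change 1.41, standard error 0.09, adjusted p = 2.43e-06 in limma). CYP1B1, a cytochrome P450, rose from 0.791 and 0.955 FPKM to 1.91 and 1.46 FPKM (log2 fold change 0.52, standard error 0.14, adjusted p = 0.0122 in limma). Without sh-CEBPG#3 replicate 1 its log2 fold change was 0.40 with an adjusted p = 0.0748 in limma. AHRR, the repressor of AHR, was far above AHR itself at 34.6 ± 1.19 FPKM with sh-NC and 39.0 ± 0.636 FPKM with sh-CEBPG#3 (SD, n = 2 each), a difference that did not pass (log2 fold change 0.17, adjusted p = 0.0891 in limma). TIPARP differed by 0.20 (adjusted p = 0.165 in limma) and ALDH3A1 by -0.17 (adjusted p = 0.363) on the log2 scale. CYP1A1 had no row.

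Of 5 tested partners of AHR none passed an adjusted p under 0.05 in limma, while 4 had an unadjusted p under 0.05. Their log2 fold changes ran from -0.20 for HSP90AB1 to -0.03 for HSP90AA1 (list median -0.18). ARNT, with which AHR binds DNA, had 13.1 and 13.5 FPKM against 11.9 and 11.3 FPKM (log2 fold change -0.18, adjusted p = 0.0981 in limma). This count depends on the scaling, as 4 of the 5 fell with equal FPKM totals and 3 with quantile normalization. Without sh-NC replicate 1, 2 fell.

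Of the known regulators of IDO1 and IL4I1 transcription 11 were tested, of which 6 rose, 1 fell and 4 did not pass (list median 0.31). IFNGR2, a chain of the interferon gamma receptor, rose from 9.57 and 7.43 FPKM to 13.2 and 16.1 FPKM (log2 fold change 0.72, standard error 0.12, adjusted p = 0.00126 in limma). The myeloid factors IRF8 and SPI1 rose by 0.44 (adjusted p = 0.000727 in limma) and 0.33 (adjusted p = 0.00732), and JAK2 and the interleukin-4 receptor chain IL4R by 0.34 (adjusted p = 0.0184) and 0.31 (adjusted p = 0.0141) on the log2 scale. IRF1, which is known to drive IDO1, had 8.59 and 8.38 FPKM with sh-NC and 9.36 and 9.29 FPKM with sh-CEBPG#3 (log2 fold change 0.12, adjusted p = 0.265 in limma). STAT6, which carries interleukin-4 signals, fell by 0.25 on the log2 scale (adjusted p = 0.0165 in limma). Without sh-CEBPG#3 replicate 1, 3 of the 11 passed, and SPI1 (adjusted p = 0.122), JAK2 (adjusted p = 0.0831), IL4R (adjusted p = 0.0783) and STAT6 (adjusted p = 0.0906) did not in limma. JAK2 also missed the threshold without sh-NC replicate 1 (adjusted p = 0.0505) or 2 (adjusted p = 0.0512), IL4R without sh-NC replicate 1 (adjusted p = 0.0554) and STAT6 without sh-CEBPG#3 replicate 2 (adjusted p = 0.122 in limma). IFNG had no row.

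**Figure D2:**
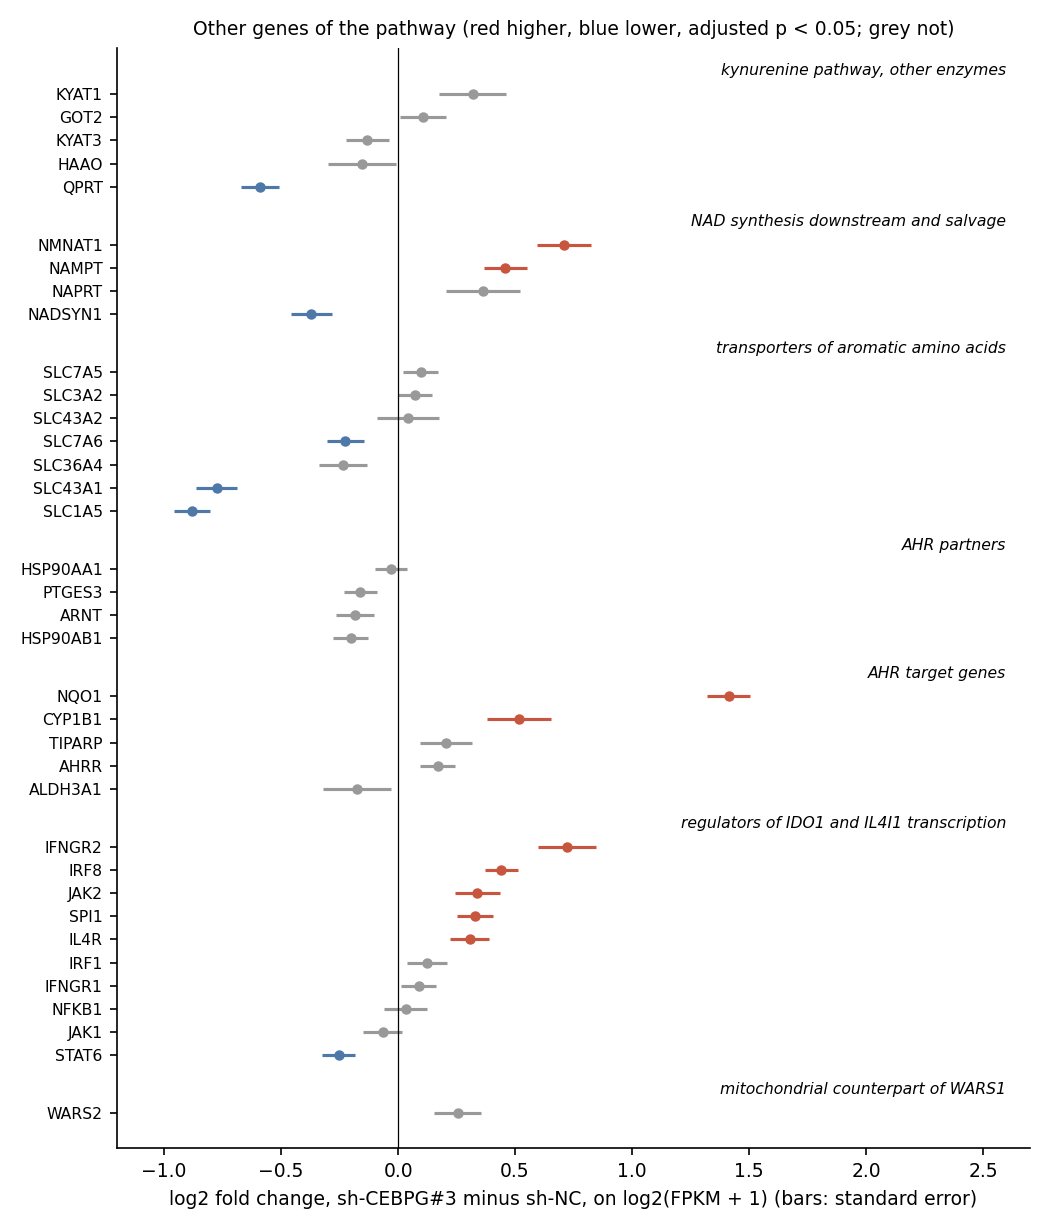
Log2 fold change (sh-CEBPG#3 minus sh-NC, on log2(FPKM + 1)) of tested genes from each list, with horizontal bars for the standard error, red for genes that rose, blue for genes that fell at an adjusted p under 0.05 in limma and grey for the others. NQO1 at 1.41 lies farthest to the right among the genes drawn, and SLC1A5 at -0.88 lies farthest to the left.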

How the data were processed

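RNA-seq libraries of MV4-11 cells were prepared from total RNA, 2 with sh-NC and 2 with sh-CEBPG#3. Reads were filtered and mapped by the authors (HISAT2 2.0.5 and hg38 in the submitters' processing notes), and FPKM values per RefSeq transcript were deposited for every library. The program behind the FPKM values and the annotation release are not given in the sources used here. As no read counts were analysed, the depth is unknown, no interval or detection limit is given, and no count test was run.

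FPKM values were summed per gene symbol over 28780 rows, of which 199 hold no value and 164 with values but without a symbol stood by themselves. A mean FPKM of 0.5 or more was required, and the 12142 genes left were fitted on log2(FPKM + 1) with limma 3.58.1 in R 4.3.3 (lmFit, eBayes with a trend), without a block, two-sided, with Benjamini-Hochberg adjustment over all of them. The fit was tested on simulated data. An exact permutation test of 2 against 2 libraries cannot give a p under 0.333, so the p-values rest on limma's variance model. Motifs were matched with Python 3.11.15.

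The 7 genes and all lists were chosen with earlier results of these data known. Named are the 7 genes, CEBPG, listed genes past an adjusted p of 0.05 with a log2 fold change beyond 0.5 in size and others needed to describe a list, and the 5 genes nearest to IL4I1 in profile. Results for some single genes under this rule are not given or drawn, while the counts and medians cover the whole lists. The alternatives were a pseudocount of 0.1, no filter, equal totals, quantile normalization, a block for the replicate number, leaving out each library, and, added later with the data in view, the most abundant transcript per gene.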

Additional observations from a re-analysis of the deposited data

How the results depend on the processing

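The log2 fold changes of the 5 genes past the filter kept their sign under all alternatives run, except for AFMID with its most abundant transcript (1.47 in place of -0.25), which was added with the data in view. The AFMID rows exchange places between the sh-NC libraries. Fits that left out 1 library at a time were made with the lone library of a group assumed to vary like the others. Their log2 fold changes ranged from 4.26 to 4.44 for IL4I1, 0.42 to 0.52 for KYNU, -0.29 to -0.20 for AFMID, 0.32 to 0.42 for AHR and 0.58 to 0.66 for WARS1. At an adjusted p under 0.05, limma called 5128 genes, and 3876 to 5001 with a library left out. They numbered 2864 with the most abundant transcript per gene, where fewer genes (11992) were tested. The share of them that rose was 43.8%, and 38.0% to 50% with a library left out. For the threshold of an unadjusted p under 0.05 with a log2 fold change beyond 1 in size, the count was 414, against 827 at a pseudocount of 0.1 and a range of 433 to 461 when a library was left out. Of the AHR partners 0 passed, against 1 without a filter, 3 with quantile normalization, 4 with equal totals and 0 to 2 with a library left out. WARS2 passed with quantile normalization and with equal totals (1 of 1). With a library left out, 1 to 2 of the other kynurenine enzymes, 1 to 2 of the AHR targets and 3 to 6 of the regulators passed. The cause was not tested. Whether same-numbered libraries share more than a number is not given in the sources used here. Their deviations from the group means correlated with r = 0.061 across genes. With 2 libraries per group this value cannot decide whether they are paired. A replicate block gave 4761 genes past the adjusted threshold and 419 past the other, and of the listed genes SLC7A6 (adjusted p = 0.125) and STAT6 (adjusted p = 0.0797) no longer passed, while NAPRT (adjusted p = 0.00982) and MIR4750 (adjusted p = 0.0456) passed in limma. Without read counts, low genes such as IDO1 and KMO could not be weighted by depth.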
